A study of Mus musculus with 12 samples.

Results

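Phosphate transport genes were followed across 12 mouse kidneys. The set held 7 of the 13124 genes measured, taken by name: the sodium-dependent phosphate cotransporters Slc34a1 (NaPi-IIa), Slc34a3 (NaPi-IIc), Slc20a1 (PiT-1) and Slc20a2 (PiT-2), the phosphate exporter Xpr1, and the scaffold proteins Pdzk1 and Slc9a3r1 (NHERF1). All 7 had counts in every kidney and none was lost to a filter on low values. The kidneys came from male C57BL/6 mice, 24 h after surgery, were flushed with saline, and gave RNA of all their cells. Kidneys 1 to 3 were from mice with sham surgery and no antibody. The other 9 were from mice with warm ischaemia-reperfusion injury of the kidney on one side (IRI), a period without blood flow followed by its return. Those mice had been injected 24 h before IRI with an isotype control antibody (kidneys 4 to 6), with VR81, a monoclonal antibody against the receptor of granulocyte colony-stimulating factor (anti-G-CSFR, kidneys 7 to 9), or with BB5.1, a monoclonal antibody against complement component C5 (anti-C5, kidneys 10 to 12). No group had IRI without an antibody or an antibody without IRI, so in isotype against sham the effects of IRI and of the control antibody cannot be told apart. The labels do not state whether the kidney taken was always the operated one, and give no age.

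The kidney sets the phosphate level of the blood by taking phosphate back from the filtrate in the proximal tubule. The apical carriers Slc34a1 and Slc34a3 bring it into the cell together with sodium and are held in the brush border by PDZ scaffolds such as Pdzk1 and Slc9a3r1, while parathyroid hormone and FGF23 with its co-receptor klotho lead to their removal from that membrane. Slc20a1 and Slc20a2 are carriers found in most cell types, and Xpr1 is the known route of phosphate out of mammalian cells.

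Between 13200930 and 16324215 reads were counted per kidney. Levels are in CPM, in which libraries of different size are made comparable with TMM factors, given per kidney and as mean ± SD (n = 3 kidneys). Changes are log2 differences from edgeR's quasi-likelihood test, with p-values adjusted by Benjamini-Hochberg over 13124 genes. A gene was called at an adjusted p below 0.05. After a change, ± gives a standard error (SE), computed here as the size of the change over the square root of the test's F statistic. Intervals were built from this SE and are not an output of edgeR. Kidney 11 of the anti-C5 group stood apart, with a mean correlation over all genes of 0.960 with its own group, where the other pair had 0.988. Kidney 4 of the isotype group also stood apart, at 0.973, where kidneys 5 and 6 had 0.994 with each other. The summed level of 5 tubule injury markers was 1926 CPM in kidney 11 and 537 CPM in kidney 9 of the anti-G-CSFR group, against 39 to 71.8 CPM in the other 4 kidneys of these groups. For some of the results that rest on these kidneys, values without them are given as well.

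All 7 genes differed between isotype and sham kidneys, and all 7 differed again, in the opposite direction, between each antibody group and the isotype group. Slc34a1, Slc34a3, Pdzk1, Slc9a3r1 and Xpr1 were lower in the 3 isotype kidneys than in all other kidneys, and Slc20a1 and Slc20a2 were higher. Of all genes, 62.8% were called in isotype against sham (32.1% higher, 30.7% lower). The share was 63.5% in anti-G-CSFR against isotype (31.5% higher, 32% lower) and 60.3% in anti-C5 against isotype (30.5% higher, 29.8% lower), so a call alone sets none of the 7 apart. Groups without overlap, which all 7 genes showed in these 3 comparisons, occurred in 69.2%, 67.2% and 62.7% of all genes. The median log2 change of the 7 was -0.87 in isotype against sham, against 0.03 over all genes. It was 0.98 for anti-G-CSFR and 0.94 for anti-C5 against isotype, where all genes had -0.02 and -0.01. The 3 comparisons share the isotype kidneys. With library totals in place of TMM factors the all-gene median moved from 0.028 to 0.227, from -0.023 to -0.233 and from -0.014 to -0.194, and the share of calls that were higher went from 51% to 64.3%, from 49.6% to 35.9% and from 50.6% to 37.8%; the directions and calls of the 7 genes were the same.

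**Figure D1:**
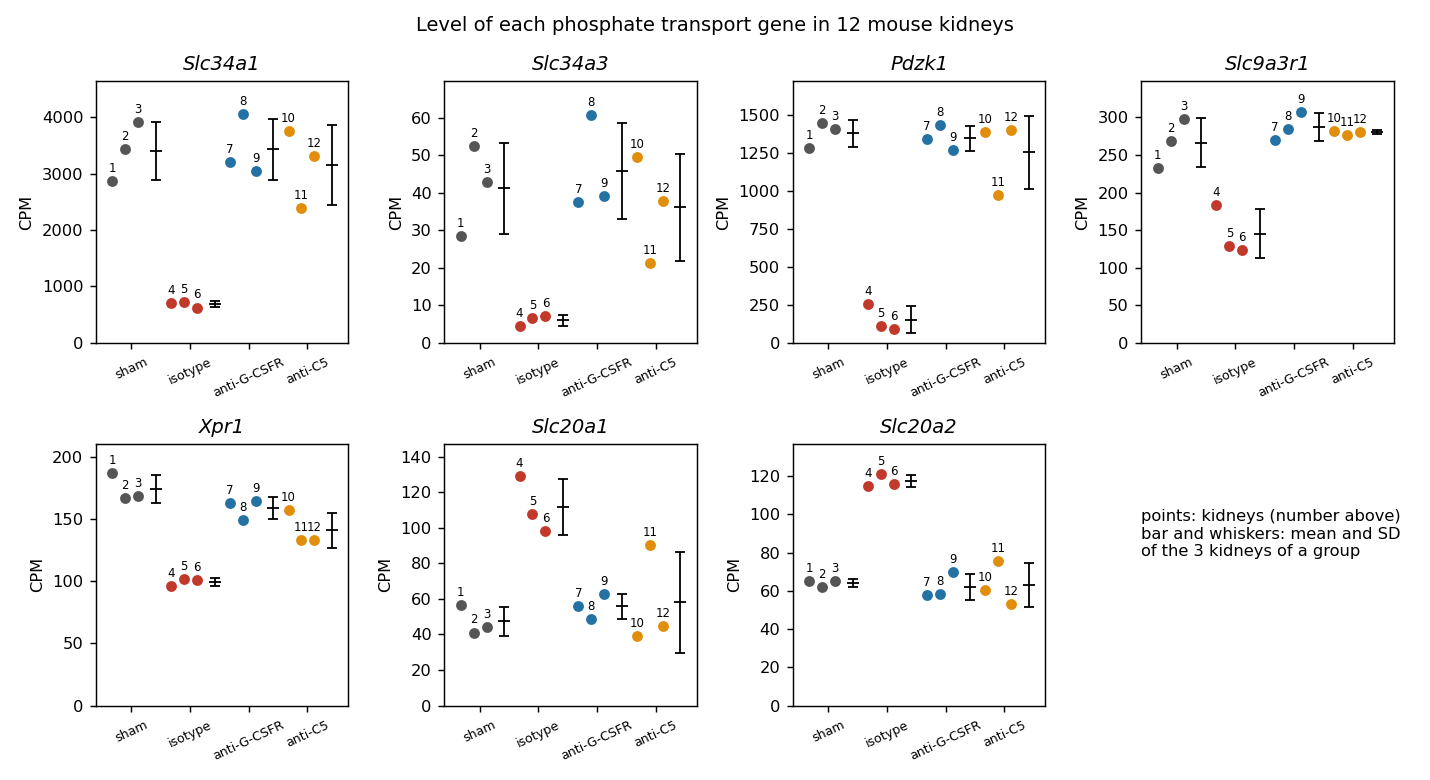
Level of each phosphate transport gene in CPM (vertical axes, each from 0) in the 12 kidneys, by group; points are kidneys with their number, and the bar with whiskers is the group's mean and SD. Isotype kidneys 4 to 6 lie below all others for Slc34a1, Slc34a3, Pdzk1, Slc9a3r1 and Xpr1 and above all others for Slc20a1 and Slc20a2, and kidney 11 is the highest kidney outside the isotype group for Slc20a1, at 90.5 CPM.

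The main carriers of the brush border were read first. Slc34a1 (Entrez 20505, protein coding, GRCm38 chr13:55398187-55415592, plus strand) carries most of the phosphate taken back by the rodent kidney. It stood at 2870, 3431 and 3914 CPM in the sham kidneys, 701, 725 and 627 CPM in the isotype kidneys, 3208, 4052 and 3044 CPM in the anti-G-CSFR kidneys and 3766, 2388 and 3314 CPM in the anti-C5 kidneys. The isotype kidneys were far below all others and close to one another, while the ranges of the other 3 groups overlapped. The isotype mean of 684 ± 50.9 CPM was 20.1% of the sham mean of 3405 ± 523 CPM, and the change of -2.32 ± 0.2 was called (edgeR adjusted p = 5.74e-06). Against isotype, Slc34a1 rose by 2.33 ± 0.201 with anti-G-CSFR (edgeR adjusted p = 7e-06) and by 2.21 ± 0.2 with anti-C5 (edgeR adjusted p = 1.17e-05). In RNA of a whole kidney, fewer cells of a type and less RNA per cell cannot be told apart. All 8 of 8 proximal tubule markers fell in isotype against sham with a median log2 change of -2.98, where 30.7% of all genes were called lower. The summed level of these markers ran from 893 to 1461 CPM in the isotype kidneys against 6880 to 7605 CPM in sham, 5776 to 6824 CPM with anti-G-CSFR and 4458 to 7163 CPM with anti-C5. Their part in the changes of the apical genes was not tested.

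Slc34a3 (Entrez 142681, protein coding, GRCm38 chr2:25228898-25234364, minus strand), the growth-related apical cotransporter, was far less abundant. Its level was 28.4, 52.4 and 42.9 CPM in sham, 4.44, 6.51 and 7.07 CPM in isotype, 37.7, 60.7 and 39.1 CPM in anti-G-CSFR and 49.5, 21.2 and 37.8 CPM in anti-C5 kidneys. The isotype kidneys were again the lowest 3, and kidney 11 was the lowest of the rest. The isotype mean was 14.6% of sham, a fall of 2.78 on the log2 scale (SE 0.344, edgeR adjusted p = 4.08e-05). Slc34a3 rose by 2.93 ± 0.345 with anti-G-CSFR (edgeR adjusted p = 3.53e-05) and by 2.59 ± 0.343 with anti-C5 (edgeR adjusted p = 9.28e-05). Its smallest count in a kidney was 80 reads, where that of Slc34a1 was 9841, so counting error is larger for Slc34a3.

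Promoter windows of the 4 genes that moved most are shown, as these genes moved together or apart across the same kidneys; each runs from 250 bases before to 50 bases after a RefSeq start site (RefSeq, GRCm38.p6). Entries were found for 6 of the 7 genes, and none for Slc20a2. Windows were searched on both strands for 5 motifs with exact letters. The TATA box motif was TATAAA. The motifs of the nuclear receptor HNF4 and of HNF1 were CAAAGTCCA and GTTAATNAT, and that of the cyclic AMP response element (CRE) was TGACGTCA. The motif searched for AP-1 was TGANTCA. Capitals mark a match. Slc34a1 lies at chr13:55399398-55399697 (plus strand), Slc34a3 at chr2:25234185-25234484 (minus strand, no match), Pdzk1 at chr3:96829815-96830114 (plus strand, first of 2 windows) and Slc20a1 at chr2:129198523-129198822 (plus strand, first of 2 windows).
Slc34a1: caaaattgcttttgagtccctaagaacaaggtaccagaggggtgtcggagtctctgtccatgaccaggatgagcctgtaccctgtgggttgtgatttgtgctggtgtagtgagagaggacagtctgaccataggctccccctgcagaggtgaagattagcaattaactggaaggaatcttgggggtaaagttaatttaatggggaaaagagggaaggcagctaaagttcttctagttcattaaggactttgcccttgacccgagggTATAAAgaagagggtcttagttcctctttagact
Slc34a3: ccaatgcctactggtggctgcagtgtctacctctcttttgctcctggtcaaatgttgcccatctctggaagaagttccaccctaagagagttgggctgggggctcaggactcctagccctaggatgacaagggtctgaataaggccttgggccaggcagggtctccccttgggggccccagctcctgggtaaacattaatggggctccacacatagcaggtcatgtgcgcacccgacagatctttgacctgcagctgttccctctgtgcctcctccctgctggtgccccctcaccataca
Pdzk1: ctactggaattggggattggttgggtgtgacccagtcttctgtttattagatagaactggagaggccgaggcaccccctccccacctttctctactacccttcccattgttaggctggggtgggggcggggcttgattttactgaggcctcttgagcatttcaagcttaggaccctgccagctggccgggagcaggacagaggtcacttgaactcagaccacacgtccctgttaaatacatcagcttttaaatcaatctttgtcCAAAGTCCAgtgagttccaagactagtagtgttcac
Slc20a1: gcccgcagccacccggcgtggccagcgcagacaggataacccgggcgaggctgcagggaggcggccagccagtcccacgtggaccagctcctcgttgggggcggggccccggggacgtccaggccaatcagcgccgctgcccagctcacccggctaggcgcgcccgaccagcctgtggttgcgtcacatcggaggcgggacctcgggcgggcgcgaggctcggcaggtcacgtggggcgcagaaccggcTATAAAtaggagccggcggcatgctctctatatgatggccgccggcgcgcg
The TATA box motif was found in the Slc34a1 window, from position 17, and in the Slc20a1 window, from position -1 (the start site is 1), and occurs in 13.6% of 32851 RefSeq windows of this length. Of the 13375 windows of genes measured here, 7.47% hold it. The Pdzk1 window held the HNF4 motif from position 15, which 0.475% of all windows and 0.449% of those of measured genes hold. No 2 matches overlapped. The shares of all windows with the HNF1, AP-1 and CRE motifs were 0.801%, 7.81% and 1.79%. For windows of measured genes they were 0.561%, 5.44% and 2.78%. The 5 motifs had no match in the other windows found, including those of Xpr1 and Slc9a3r1, and Slc20a2 could not be searched. The GC content was 46.7% for Slc34a1, 57.7% for Slc34a3, 51% for Pdzk1 and 73% for Slc20a1, against a median of 52.7% over all windows. A match is a run of letters and says nothing of binding.

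The scaffolds fell to different extents. Pdzk1 (Entrez 59020, protein coding, GRCm38 chr3:96829284-96870926, plus strand), a protein of several PDZ domains that binds the tail of Slc34a1, had the largest change of the set. It was at 1279, 1442 and 1408 CPM in sham, 258, 111 and 91 CPM in isotype, 1337, 1431 and 1266 CPM in anti-G-CSFR and 1384, 972 and 1397 CPM in anti-C5 kidneys. Kidney 4 held more than the other isotype kidneys and still lay far below every other kidney, of which kidney 11 was the lowest. The isotype mean of 153 ± 91.5 CPM was 11.1% of sham, a log2 change of -3.17 ± 0.338 (edgeR adjusted p = 1.58e-05) that was -3.77 without kidney 4. Pdzk1 rose by 3.13 ± 0.337 with anti-G-CSFR (edgeR adjusted p = 2.08e-05) and by 3.03 ± 0.336 with anti-C5 (edgeR adjusted p = 3.25e-05).

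Slc9a3r1 (Entrez 26941, protein coding, GRCm38 chr11:115163341-115181181, plus strand), which ties apical carriers to ezrin and the actin skeleton, changed less. It stood at 233, 268 and 298 CPM in sham, 183, 129 and 124 CPM in isotype, 270.5, 284 and 307 CPM in anti-G-CSFR and 282, 277 and 281 CPM in anti-C5 kidneys. Kidney 4 was the highest isotype kidney and lay below the lowest sham kidney; kidney 11 did not differ from its group here. Slc9a3r1 fell by 0.87 on the log2 scale in isotype against sham (SE 0.148, edgeR adjusted p = 0.000347), to 54.6% of the sham mean, and by 1.07 without kidney 4. It rose by 0.98 ± 0.148 with anti-G-CSFR (edgeR adjusted p = 0.000169) and by 0.94 ± 0.148 with anti-C5 (edgeR adjusted p = 0.000263).

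The balance between carrier and scaffold RNA was described per length, as RPKM, the CPM divided by the summed exon length in kilobases, with no test. The ratio of Pdzk1 to Slc9a3r1 was 2.81 ± 0.223 in sham and 0.765, 0.463 and 0.397 in kidneys 4, 5 and 6, and between 1.9 (kidney 11) and 2.73 in the 6 kidneys of the antibody groups. The ratio of Slc34a1 to Pdzk1 was 1.88 ± 0.212 in sham. In isotype kidneys it was 2.06, 4.98 and 5.24, so kidneys 5 and 6 held less Pdzk1 for their Slc34a1 than any other kidney and kidney 4 did not. In the antibody groups it ran from 1.8 to 2.15.

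Xpr1 (Entrez 19775, protein coding, GRCm38 chr1:155275701-155417415, minus strand), the exporter, followed the apical genes with a smaller change. It was at 187, 167 and 169 CPM in sham, 95.9, 102 and 101 CPM in isotype, 163, 149 and 165 CPM in anti-G-CSFR and 157, 133 and 133 CPM in anti-C5 kidneys. The isotype kidneys were the lowest 3. Every kidney of both antibody groups lay below every sham kidney, though the highest anti-G-CSFR kidney, at 165 CPM, was close to the lowest sham kidney, at 167 CPM. Such lack of overlap with sham occurred in 18.4% of all genes for anti-G-CSFR and 18% for anti-C5. Neither difference from sham was called (edgeR adjusted p = 0.836 and 0.371). Xpr1 fell to 57.1% of sham in the isotype group, a log2 change of -0.81 ± 0.0959 (edgeR adjusted p = 3.18e-05). It rose by 0.67 ± 0.0958 with anti-G-CSFR (edgeR adjusted p = 0.000113) and by 0.50 ± 0.0957 with anti-C5 (edgeR adjusted p = 0.000921).

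The carriers of the SLC20 family moved the other way. Slc20a1 (Entrez 20515, protein coding, GRCm38 chr2:129198764-129211616, plus strand) was at 56.6, 41.1 and 44.4 CPM in sham, 129, 108 and 98.4 CPM in isotype, 56, 48.6 and 62.9 CPM in anti-G-CSFR and 39.1, 90.5 and 44.5 CPM in anti-C5 kidneys. All isotype kidneys were above all others, but kidney 11, at 90.5 CPM, came close to kidney 6 and lay far above kidneys 10 and 12. Slc20a1 rose by 1.24 ± 0.266 in isotype against sham (edgeR adjusted p = 0.0017), to 236% of sham. With anti-G-CSFR it fell by 1.00 on the log2 scale (SE 0.265, edgeR adjusted p = 0.006). With anti-C5 it fell by 0.95 on the log2 scale (SE 0.264, edgeR adjusted p = 0.0089) with kidney 11 and by 1.42 (SE 0.171, edgeR adjusted p = 3.45e-05) without it. Over all alternatives this adjusted p ran from 3.45e-05 to 0.0407. In kidney 11 the summed level of 6 neutrophil markers was 109 CPM, against 7.19 and 12.9 CPM in kidneys 10 and 12 and 38 to 105 CPM in the isotype kidneys, and that of 3 red blood cell markers was 166 CPM, against at most 55.1 CPM in the other 11 kidneys. Their part in its Slc20a1 level was not tested.

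Slc20a2 (Entrez 20516, protein coding, GRCm38 chr8:22476788-22569612, plus strand) was nearly level among the sham kidneys. It was at 65.1, 61.8 and 65.3 CPM in sham, 115, 121 and 116 CPM in isotype, 57.6, 58.3 and 69.9 CPM in anti-G-CSFR and 60.3, 75.8 and 53 CPM in anti-C5 kidneys. The isotype kidneys stood well above all others; kidneys 9 and 11 were the highest of their groups. Slc20a2 rose by 0.88 ± 0.123 in isotype against sham (edgeR adjusted p = 9.65e-05), to 184% of sham. It fell by 0.93 on the log2 scale with anti-G-CSFR (SE 0.123, edgeR adjusted p = 7.44e-05) and by 0.90 with anti-C5 (SE 0.123, edgeR adjusted p = 0.000114). Slc34a2, a further SLC34 gene named after its values were seen, did not fall with Slc34a1 and Slc34a3. It was at 13.2, 7.4 and 8.43 CPM in sham and 40.6, 20.1 and 17.5 CPM in isotype kidneys, with no overlap. The change of 1.43 ± 0.589 was not called (edgeR adjusted p = 0.0505). With anti-G-CSFR it was at 9.45, 5 and 15.9 CPM, below all isotype kidneys. With anti-C5 it was at 8.32, 30.3 and 5.33 CPM, where kidney 11 lay within the range of the isotype kidneys. Its changes against isotype were not called either, at -1.37 with anti-G-CSFR (edgeR adjusted p = 0.0592) and -0.83 with anti-C5 (edgeR adjusted p = 0.228).

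Exons of 4 of the genes overlap exons of genes on the other strand in the GENCODE vM21 annotation, and the strand setting of the counting is not given in the sources used here, nor is its version. The overlap was 1333 bases for Pdzk1 with Gpr89, 545 for Slc34a1 with Pfn3, 452 for Slc20a1 with 9830144P21Rik and 95 for Slc20a2 with Smim19. If strand was not used, reads from these stretches cannot be assigned to one gene of the pair.

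**Figure D2:**
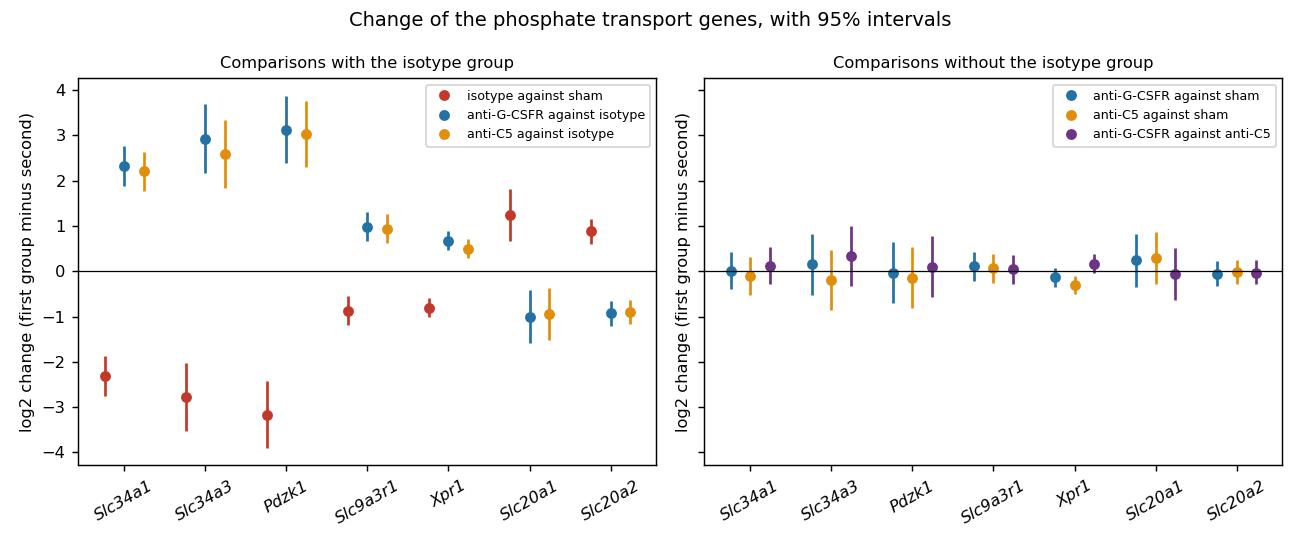
Log2 change (first group minus second) of the 7 genes, with 95% intervals computed from the SE derived from edgeR's quasi-likelihood F statistic. The left panel holds the 3 comparisons with the isotype group and the right panel the 3 comparisons among sham, anti-G-CSFR and anti-C5. In the left panel Slc20a1 and Slc20a2 lie on the opposite side of 0 from the other 5 genes, and in the right panel Xpr1 in anti-C5 against sham is the point whose interval, -0.51 to -0.10, does not reach 0.

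Per length, Slc34a1 was the most abundant of the 5 carriers in every kidney. In sham kidneys its level was 728 ± 112 RPKM, against 17.5 ± 5.12 RPKM for Slc34a3, 10.3 ± 0.32 RPKM for Slc20a2, 9.76 ± 0.604 RPKM for Xpr1 and 8.49 ± 1.46 RPKM for Slc20a1; Pdzk1 was at 387 ± 24.2 RPKM and Slc9a3r1 at 138 ± 16.9 RPKM. Xpr1 did not differ beyond the spread from Slc20a2 or Slc20a1, and its place depended on the length used, while Slc20a2 was above Slc20a1 with either length. With the longest transcript Xpr1 came to 23.3 RPKM, Slc34a3 to 18.9, Slc20a2 to 18 and Slc20a1 to 14.3. In isotype kidneys Slc34a1 was at 146 ± 10.9 RPKM, followed by Slc20a1 at 20 ± 2.82 and Slc20a2 at 18.9 ± 0.504 RPKM, which did not differ beyond their spread, then Xpr1 at 5.58 ± 0.188 and Slc34a3 at 2.55 ± 0.587 RPKM. By summed exon length Slc34a3 was thus second of 5 in sham and last of 5 in isotype kidneys.

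Slc34a1 made up 93.4, 93.8 and 94.8% of the summed RPKM of the 5 carriers in sham kidneys, 75.4, 76.6 and 74.9% in isotype, 93.9, 94.3 and 93.1% in anti-G-CSFR and 94.5, 91.9 and 94.7% in anti-C5 kidneys. The isotype kidneys were the lowest 3, and kidney 11 the lowest of the other 9. Slc20a1 took 1.13 ± 0.361% in sham and 10.3 ± 1.14% in isotype kidneys, and Slc20a2 took 1.35 ± 0.215% and 9.81 ± 0.567%. The share of Slc34a3 was 2.24 ± 0.526% in sham and 1.33 ± 0.365% in isotype kidneys. Xpr1 took a larger share in the isotype group, 2.89 ± 0.242% against 1.29 ± 0.271%, although its level fell. These are shares of RNA, not of transport.

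**Figure D3:**
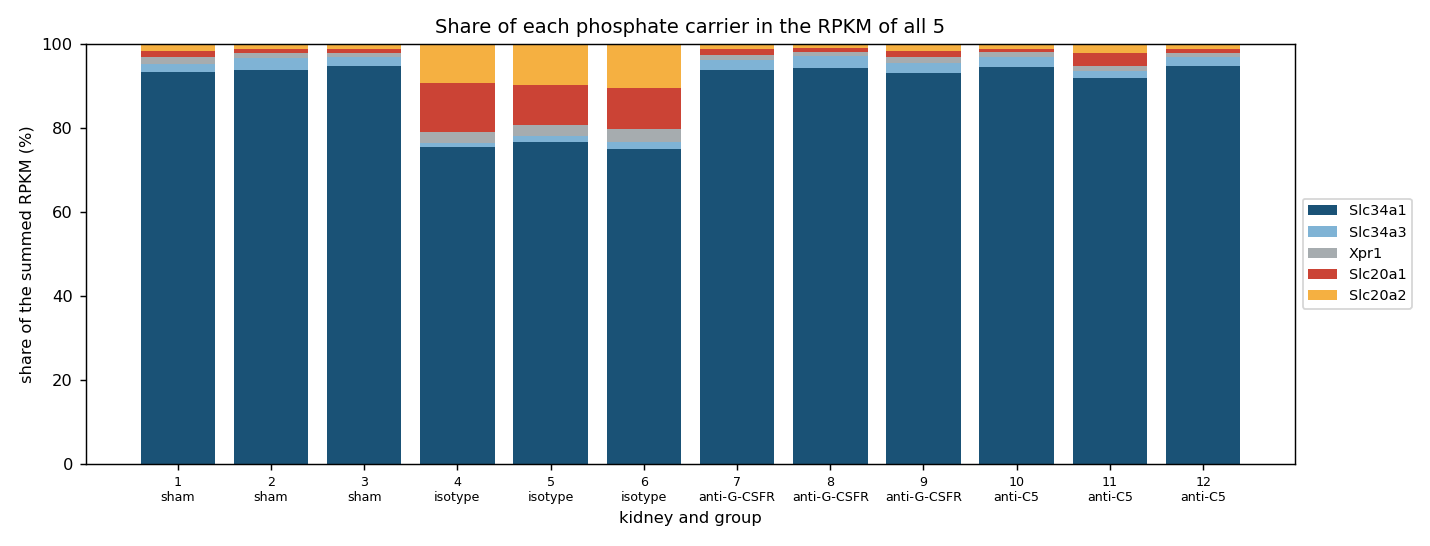
Share of each of the 5 phosphate carriers in their summed RPKM (vertical axis, percent, from 0 to 100) in each of the 12 kidneys; a bar is 1 kidney and its colours are the genes. Slc34a1 takes 74.9 to 76.6% in the isotype kidneys and 91.9 to 94.8% in the other 9.

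Among sham, anti-G-CSFR and anti-C5 kidneys none of the 7 genes was called; the share of all genes called was 0% in each of the 3 comparisons. At an unadjusted p below 0.05, edgeR had 778 genes in anti-G-CSFR against sham, 1487 in anti-C5 against sham and 207 in anti-G-CSFR against anti-C5. Of the 7, these held 0, 1 and 0, the 1 being Xpr1 (edgeR unadjusted p = 0.00744). DESeq2 called 9, 28 and 2 genes and limma-voom 0 in each, with none of the 7 among them. The smallest unadjusted p of the set was that of Xpr1 in anti-C5 against sham, a log2 change of -0.31 ± 0.0953 with 3 of 3 kidneys below all sham kidneys (edgeR adjusted p = 0.371). Its 95% interval allows an anti-C5 level of 0.7 to 0.934 times sham, and its adjusted p ran from 0.0565 to 0.882 over the alternatives. Groups without overlap occurred in 18% of all genes in that comparison, 18.4% in anti-G-CSFR against sham, where Xpr1 again was the 1 gene of the 7, and 4.28% in anti-G-CSFR against anti-C5, with 0 of the 7.

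A p that misses the threshold does not show equal levels, and the intervals differ by gene. In anti-G-CSFR against sham, the ratio was bounded between 0.756 and 1.35 for Slc34a1, 0.7 and 1.76 for Slc34a3, 0.611 and 1.56 for Pdzk1, 0.863 and 1.34 for Slc9a3r1, 0.79 and 1.05 for Xpr1, 0.789 and 1.76 for Slc20a1, and 0.802 and 1.16 for Slc20a2. The narrowest of these is that of Xpr1 on the ratio scale. In anti-C5 against sham, the bounds were 0.694 and 1.24 for Slc34a1, 0.551 and 1.4 for Slc34a3, 0.569 and 1.45 for Pdzk1, 0.843 and 1.31 for Slc9a3r1, 0.82 and 1.83 for Slc20a1, and 0.817 and 1.19 for Slc20a2. Between the antibodies, anti-G-CSFR over anti-C5, Slc34a1 was bounded between 0.815 and 1.45, Slc34a3 between 0.796 and 2.02, Pdzk1 between 0.672 and 1.72, Slc9a3r1 between 0.821 and 1.28, Xpr1 between 0.977 and 1.3, Slc20a1 between 0.645 and 1.44, and Slc20a2 between 0.815 and 1.18. Against their respective groups, kidney 11 widened the spread: Slc34a1 was 70.1%, Slc34a3 51.4%, Pdzk1 70.7% and Slc20a1 191% of the sham mean in it. Without it the anti-C5 means were 3540 CPM for Slc34a1, 43.7 CPM for Slc34a3, 1391 CPM for Pdzk1 and 41.8 CPM for Slc20a1. Without kidney 9, the anti-G-CSFR means were 3630 CPM for Slc34a1 and 52.3 CPM for Slc20a1, against 3044 and 62.9 CPM in that kidney.

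Across all 12 kidneys the 7 genes formed opposite groups, as a description of log2 CPM in kidneys that share the group difference. Pearson's r was 0.98 between Slc34a1 and Slc34a3, 0.97 between Slc34a1 and Pdzk1, 0.97 between Pdzk1 and Slc9a3r1 and 0.9 between Slc34a1 and Xpr1. It was -0.97 between Slc34a1 and Slc20a2 and -0.9 between Slc34a1 and Slc20a1. The genes most like Slc34a1 among all with a mean log2 CPM of at least 3 were Cyb5b (r = 0.996), the water channel gene Aqp1 (0.995) and Prkcz (0.994), and those most like Pdzk1 were Keg1 (0.999), B3gat2 (0.998) and Fggy (0.998). Slc34a3 was nearest to Epn1, Mfsd1 and Pvalb (0.989 to 0.990) and Slc9a3r1 to Tmem106a, Qprt and Igfbp4 (0.987 to 0.989). Slc20a1 was nearest to Apex1, Rhbdf1 and Colgalt1 (0.977 to 0.985), Slc20a2 to Itga3, the lamin gene Lmna and Slc12a4 (0.993 to 0.995), and Xpr1 to the nuclear receptor gene Esrrg and to Kidins220 (0.986 and 0.983). Over the 9 kidneys outside the isotype group, r with these genes was 0.87 to 0.92 for Slc34a1, 0.94 to 0.98 for Slc20a2, 0.90 to 0.96 for Pdzk1 and 0.74 to 0.79 for Slc9a3r1.

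Genes of further apical scaffolds, and of proteins that bind or work with them, mostly fell with the apical carriers. Of 9 such genes, all measured, 6 fell and 1 rose in isotype against sham (median -0.90). Of all genes, 62.8% were called there (32.1% higher, 30.7% lower). Against isotype 7 rose and 1 fell with anti-G-CSFR (median 0.75), and 6 rose and 1 fell with anti-C5 (median 0.65). The shares of all genes called there were 63.5% and 60.3%. The sodium-proton exchanger gene Slc9a3, whose protein binds the same scaffolds, went from 179.8 ± 4.11 CPM in sham to 65.9 ± 5.33 in isotype and stood at 161 ± 6.6 with anti-G-CSFR and 154 ± 25.2 with anti-C5 (n = 3 each; log2 change in isotype against sham -1.45 ± 0.116, edgeR adjusted p = 4.28e-06). The scaffold gene Shank2 went from 51.9 ± 1.18 to 12.8 ± 1.33 CPM, a fall of 2.02 on the log2 scale, and Myo6, a motor of apical endocytosis, fell by 0.90. Ezr, the gene of ezrin to which Slc9a3r1 binds, was the 1 gene of this list that rose: it was at 439, 420.2 and 471 CPM in sham and 669, 1075 and 1026 CPM in isotype kidneys (1.06 ± 0.192, edgeR adjusted p = 0.000549), and at 400.4 ± 45.7 and 424 ± 82.9 CPM in the antibody groups. RNA of Slc9a3r1 and of its partner ezrin thus moved in opposite directions.

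Slc9a3r2 (NHERF2), the closest relative of Slc9a3r1, was not called in any of the 3 comparisons with isotype. It was at 52.3 ± 1.07 CPM in sham and at 43.6, 71.8 and 70.3 CPM in kidneys 4, 5 and 6, which lie on both sides of the sham kidneys. Its call depended on kidney 4 and on the processing: the log2 change in isotype against sham was 0.24 ± 0.168 with kidney 4 (edgeR adjusted p = 0.229) and 0.44 without it (edgeR adjusted p = 0.00516), over a range of adjusted p of 0.000449 to 0.592 among the alternatives. Without kidney 4 it was also called against isotype with anti-G-CSFR (-0.50) and anti-C5 (-0.43), against -0.30 and -0.23 with it. With all kidneys it was called in isotype against sham with library totals (0.44) and with sample weights (0.42), and both settings also called it in the other 2 comparisons. Gabarap was at 307 ± 22.7 CPM in sham, 289 ± 25 in isotype, 364 ± 29.1 with anti-G-CSFR and 346 ± 26.9 with anti-C5. It was called in anti-G-CSFR against isotype alone of these 3 (0.33 ± 0.113, edgeR adjusted p = 0.0217). That call was lost without kidney 5 (0.30), kidney 6 (0.29) or kidney 8 (0.27) and with library totals (0.12); in anti-C5 against isotype the change of 0.26 ± 0.113 was not called and became so without kidney 4 (0.34) or kidney 11 (0.32), and with all kidneys by DESeq2 (0.26), with a filter at 5 CPM (0.27) and with sample weights (0.34).

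Of 16 genes of the hormone axis that acts on phosphate, 14 were measured. In isotype against sham 10 fell and 4 rose (median -0.93), and in both comparisons of an antibody with isotype 10 rose and 3 fell (median 0.87 with anti-G-CSFR and 0.80 with anti-C5). The shares of all genes called in these 3 comparisons were 62.8%, 63.5% and 60.3%. Most genes of receptors fell, and the FGF receptor gene Fgfr1, named after its values were seen, rose in isotype against sham (0.41 ± 0.114, edgeR adjusted p = 0.00841) and fell by 0.50 and 0.49 on the log2 scale with anti-G-CSFR and anti-C5 against isotype. Kl, the gene of klotho, was at 761, 869 and 837 CPM in sham, 150.4, 124 and 109.8 CPM in isotype, 686, 791 and 609 CPM in anti-G-CSFR and 819, 495 and 614 CPM in anti-C5 kidneys, lowest in the isotype kidneys without overlap (-2.68 ± 0.197 against sham, edgeR adjusted p = 2.73e-06). Pth1r, the parathyroid hormone receptor gene, went from 707 ± 51.5 CPM in sham to 150.3 ± 44.4 in isotype and stood at 582 ± 40.8 and 555 ± 63.3 in the antibody groups (-2.23 ± 0.187 in isotype against sham, edgeR adjusted p = 5e-06). The FGF receptor gene Fgfr3 fell by 1.23 on the log2 scale and the vitamin D receptor gene Vdr by 1.82, while the protein kinase gene Prkca rose by 0.65.

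The genes that make and break down active vitamin D moved in opposite directions. Cyp27b1, the 1-alpha-hydroxylase gene, was at 0.871, 2.66 and 1.64 CPM in sham, 9.33, 65.9 and 49.4 CPM in isotype, 1.12, 3.36 and 11 CPM in anti-G-CSFR and 2.89, 1.16 and 1.08 CPM in anti-C5 kidneys. All isotype kidneys exceeded all sham kidneys, with kidney 4 far below kidneys 5 and 6 and below kidney 9 of the anti-G-CSFR group. The rise of 4.58 ± 0.854 was called (edgeR adjusted p = 0.00068), from counts as low as 13 reads in a library, and was 5.05 without kidney 4. Cyp24a1, the 24-hydroxylase gene, was at 340.3, 199 and 168 CPM in sham, 102, 36.4 and 44.5 CPM in isotype, 269, 399 and 105 CPM in anti-G-CSFR and 198, 586 and 305 CPM in anti-C5 kidneys. Here too the isotype kidneys were the lowest 3, but kidney 9 was near kidney 4 and kidney 11 was the highest of all. The fall in isotype against sham was 1.95 on the log2 scale (SE 0.549, edgeR adjusted p = 0.00847), and 2.54 without kidney 4.

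Inositol pyrophosphates bind the SPX domain of Xpr1 and signal the phosphate state of the cell. Of 10 genes listed as makers or breakers of them or as partners of Xpr1, 9 were measured: 2 fell and 3 rose in isotype against sham (median 0.13). Against isotype 2 rose and 4 fell with anti-G-CSFR (median -0.13), and 2 rose and 3 fell with anti-C5 (median -0.11). Over all genes 62.8%, 63.5% and 60.3% were called in these 3 comparisons, so the calls do not set this list apart. Kidins220, whose protein forms a complex with Xpr1, moved with it, from 418 ± 33.6 CPM in sham to 213 ± 10.6 in isotype, 358 ± 13.2 with anti-G-CSFR and 346 ± 55.3 with anti-C5 (-0.97 ± 0.123 in isotype against sham, edgeR adjusted p = 4.84e-05). Nudt4, the gene of a pyrophosphate hydrolase, went from 831 ± 46.1 to 380.2 ± 31.3 CPM (-1.13 ± 0.17), while Ipmk, an inositol kinase gene, rose from 76.5 ± 8.62 to 127 ± 12.2 CPM (0.73 ± 0.129). Nudt3, a relative of Nudt4, was at 61.1 ± 1.68 CPM in sham and 58.8 ± 3.79 in isotype and was not called.

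Of 14 genes that handle phosphate, phosphate esters or pyrophosphate elsewhere in the cell, 13 were measured: 8 fell and 2 rose in isotype against sham (median -0.77), and 9 rose and 2 fell in each comparison of an antibody with isotype (medians 0.59 and 0.61). Calls over all genes were 62.8% in isotype against sham, 63.5% with anti-G-CSFR and 60.3% with anti-C5 against isotype. Slc37a4, the carrier that exchanges glucose 6-phosphate for phosphate across the endoplasmic reticulum, had the largest change of the list, from 339 ± 22.9 CPM in sham to 32.2 ± 4.94 in isotype, 299 ± 30.3 with anti-G-CSFR and 261 ± 74.4 with anti-C5 (-3.39 ± 0.21 in isotype against sham, edgeR adjusted p = 1.75e-06). The ectonucleotidase gene Enpp3 fell by 2.06 on the log2 scale and Alpl, the gene of tissue-nonspecific alkaline phosphatase, by 1.58. Slc25a3, the mitochondrial phosphate carrier, changed less than these: it was at 908, 992 and 1005 CPM in sham and 684, 683 and 692 CPM in isotype kidneys, with no overlap (-0.50 ± 0.133, edgeR adjusted p = 0.00641). Lhpp, with at most 116 reads in a library, was not called in isotype against sham, and its change of 0.37 ran from 0.03 without kidney 4 to 0.60 without kidney 6. In the 3 comparisons among sham, anti-G-CSFR and anti-C5 no gene of these 4 lists was called, where the share of all genes called was 0%.

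**Figure D4:**
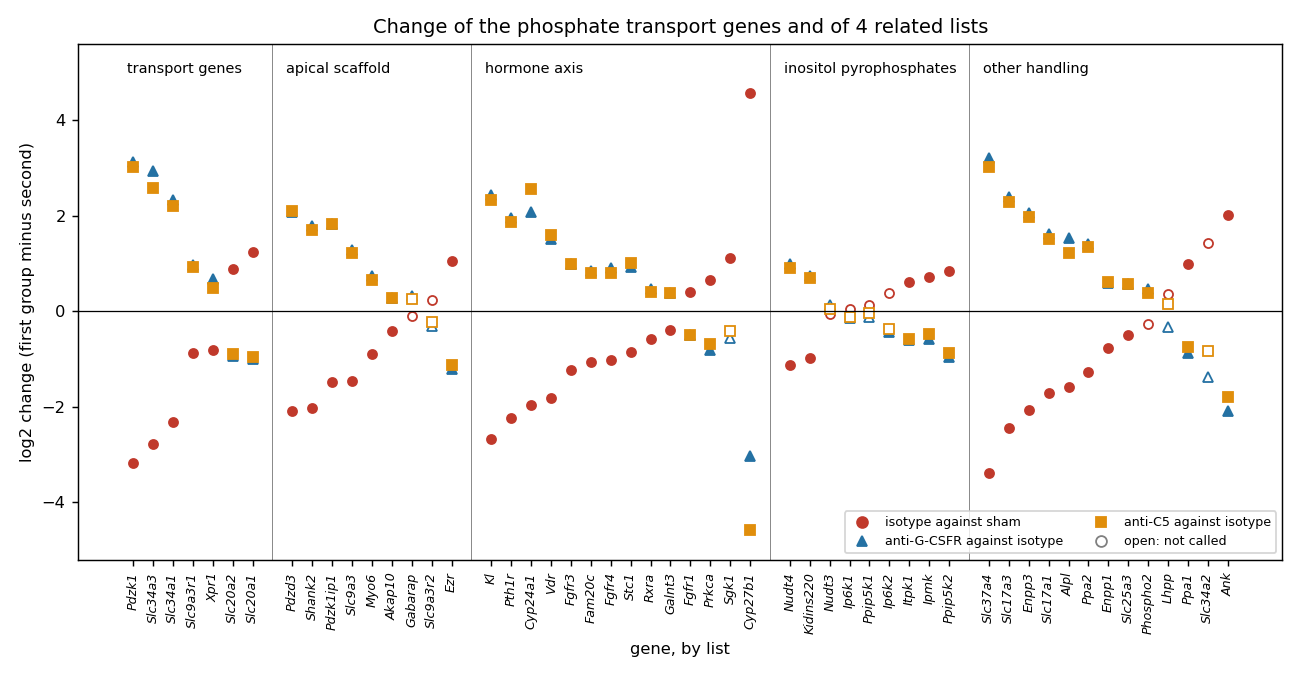
Log2 change (vertical axis, first group minus second) of the 7 phosphate transport genes and of each measured gene of the 4 related lists, in the 3 comparisons with the isotype group; open symbols were not called. In each list the points of isotype against sham lie mostly on the other side of 0 from those of the antibody groups against isotype, which share the isotype kidneys; Cyp27b1 has the largest rise in isotype against sham, 4.58, and Slc37a4 the largest fall, -3.39.

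Markers of other cells also moved between these groups, where 62.8% of all genes were called in isotype against sham (32.1% higher, 30.7% lower). Between isotype and sham kidneys 6 of 9 markers of other nephron segments fell (median -0.64), with summed levels of 4102 to 6006 CPM in isotype and 7980 to 8642 CPM in sham kidneys. All 5 tubule injury markers rose, with summed levels of 7195 to 7352 CPM in isotype and 29.4 to 48.3 CPM in sham kidneys. All 6 neutrophil markers rose, from 7.4 to 9.72 CPM in sham to 38 to 105 CPM in isotype kidneys. Of 5 macrophage markers, 2 rose (Cd68 and Itgam), 1 fell (Csf1r, by 0.67 on the log2 scale) and 2 were not called; their summed level was 107 to 117 CPM in isotype and 66.6 to 93.4 CPM in sham kidneys. Of 5 endothelial markers 2 rose and 3 were not called, with summed levels of 346 to 484 and 295 to 329 CPM. No measured marker was at 0 in all kidneys, and the part of these cells in the rise of Slc20a1 and Slc20a2 was not tested.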

How the data were processed

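Stranded RNA libraries of 12 kidneys were sequenced as single reads of 100 bp in lane 8, per the labels' protocols. Reads were handled with TopHat2 2.1.0, Bowtie2 2.2.5 and featureCounts on GRCm38.p4, per the submitters' processing notes. The table the authors deposited holds raw read counts for 13124 genes; no gene had a third-highest CPM below 2.01, so low genes appear to have been removed before deposit, which is read from the values. Symbols matched 13074 gene IDs.

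The test on counts was that of edgeR 4.0.16 under R 4.3.3 (TMM, robust quasi-likelihood, all 12 libraries, common biological coefficient of variation 16.4%, 8 residual degrees of freedom); filterByExpr removed 0 genes. RPKM and CPM were computed from the counts. Kidneys of a group are separate mice, and pairs within a group differed by more than sampling noise (chi-square per degree of freedom 5.45 to 65.3). The members, lists and comparisons were chosen with earlier results of these data known. All 7 members are named; from each related list, the 2 genes with the smallest p in isotype against sham, the 2 with the smallest p in anti-G-CSFR against anti-C5, and 9 taken by role (Pth1r, Kl, Vdr, Cyp27b1, Cyp24a1, Slc9a3r2, Slc9a3, Ezr, Slc25a3). Genes like a member were the 3 with the highest r; one gene this rule names is not reported here. Alternatives were other scaling factors, a filter at 5 CPM, DESeq2 1.42.0, limma-voom (limma 3.58.1) with and without sample weights, only the compared libraries, kidneys left out and, for RPKM, the longest transcript. The fit was also run on simulated data. Far fewer genes were changed there than were called in the comparisons with isotype, so no result here rests on it. Protein sequences were not used here.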

Additional observations from a re-analysis of the deposited data

How the results depend on the processing

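In the 3 comparisons with isotype, all 7 phosphate transport genes kept direction and call under every alternative run (161 values in each), and 7 were called each time. Among sham, anti-G-CSFR and anti-C5, 0 of the 7 were called under any. Calls over all genes there came to 9 with DESeq2, 305 with sample weights and 43 with only 6 libraries in anti-G-CSFR against sham, to 28 with DESeq2 in anti-C5 against sham and to 2 with DESeq2 in anti-G-CSFR against anti-C5; the cause was not tested. With the longest transcript the share of Slc34a1 was 91.9% in sham, 67.5% in isotype, 91.8% with anti-G-CSFR and 91.5% with anti-C5, which follows from the lengths used. No paired analysis was possible because kidney numbers 1 to 12 occur in one group each.

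Some values that were not called changed sign, for causes not tested. With library totals these were Gabarap (0.11) and Nudt3 (0.14) in isotype against sham, then Nudt3 (-0.08) in anti-G-CSFR against isotype, Nudt3 (-0.11) and Lhpp (-0.00) in anti-C5 against isotype, Slc34a1 (-0.00) in anti-G-CSFR against sham and Slc20a2 (0.01) in anti-C5 against sham. With sample weights Slc20a1 went from 0.29 to -0.01 in anti-C5 against sham. In anti-G-CSFR against anti-C5 it went from -0.05 to 0.19, where voom without weights gave 0.04. Without kidneys 9 and 11, Lhpp came to -0.08 in anti-C5 against isotype, Pdzk1 to 0.02 in anti-G-CSFR against sham, and in anti-C5 against sham Slc34a1 to 0.06, Slc34a3 to 0.09, Slc20a1 to -0.18 and Pdzk1 to 0.02. In anti-G-CSFR against anti-C5 this left Slc20a1 at 0.34, Slc20a2 at 0.04 and Slc9a3r1 at -0.01.

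With single kidneys left out, Lhpp ran from -0.56 to 0.01 in anti-G-CSFR against isotype and from -0.09 to 0.50 in anti-C5 against isotype. Against sham with anti-G-CSFR, Slc34a1 ran from -0.12 to 0.12, Slc34a3 from -0.10 to 0.36, Slc20a2 from -0.13 to 0.00 and Pdzk1 from -0.08 to 0.02. In anti-C5 against sham, Slc34a1 ran from -0.26 to 0.06, Slc34a3 from -0.49 to 0.08, Slc20a1 from -0.18 to 0.51, Slc20a2 from -0.18 to 0.09, Pdzk1 from -0.22 to 0.02 and Slc9a3r1 from -0.02 to 0.16. In anti-G-CSFR against anti-C5, Slc34a1 ran from -0.04 to 0.27, Slc20a1 from -0.27 to 0.42, Slc20a2 from -0.14 to 0.13, Pdzk1 from -0.05 to 0.19 and Slc9a3r1 from -0.00 to 0.08.

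With 3 kidneys a group, the lack of a call does not show that a gene was unchanged, and changes inside the intervals given were not excluded. Slc34a3, Cyp27b1 and Lhpp rest on few reads.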
